A study of Mus musculus with 249 samples.

Results

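Of 249 multiplex genome architecture mapping libraries, 47 were chosen by their coverage, the percent of the 68162 listed genomic windows of 40 kb that were positive, at a threshold of 25 percent or more. They are called high-coverage libraries here and are set beside the 131 libraries with a coverage of 10 to 20 percent, called the comparison set. The other libraries lay below 10 percent (31 libraries) or above 20 and below 25 percent (40 libraries). All libraries came from the same cells, 46C mouse embryonic stem cells of strain 129/Ola, a line derived from E14tg2a that carries a GFP gene in place of Sox1 coding sequence. Cells were grown with serum and LIF and moved to serum-free medium for the last day before harvest, so both sets share the genotype and the culture. Cryosections of 220 nm were cut, slices of nuclei were picked by laser microdissection, and the titles give 4 slices per tube, which were amplified together and sequenced. Because a slice may miss the nucleus, the number of nuclear slices actually held by each tube is not known per library.

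Genome architecture mapping measures which stretches of DNA lie in the same thin slice of a nucleus. Each chromosome occupies its own region of the nucleus, a chromosome territory, so a thin slice passes through some territories and misses others, and loci that are close in space are captured together more often. A slice through a territory captures stretches of the chromosome fibre, which appear as runs of adjacent positive windows. In a library of several slices from different nuclei, the stretches of all slices are added together. The assay reads DNA only, so the cell type could not be checked against expressed markers, and chromosome X, of which a male line has a single copy, served as a check on copy number.

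The libraries belonged to 11 experiments with 20 arms, named in the sample titles. High-coverage libraries came from 16 of the 20 arms and from 10 of the 11 experiments, in unequal shares. The early freezing experiment, which froze the slices either before lysis or after it, held 7 of 12 frozen-early and 1 of 11 frozen-late libraries. The propidium iodide experiment, of which only unstained libraries were given, held 6 of 20, and the full collection, the largest arm, held 6 of 54. The cresyl violet experiment held 5 of 16 libraries stained with this dye and 2 of 10 unstained ones. The kit size experiment held 5 of 12 small-kit and 2 of 11 large-kit libraries, where the titles name the size of the amplification kit. Of the unstained arm of the eosin experiment 3 of 18 libraries were high in coverage, and of the unstained arm of the SYBR Gold experiment 1 of 10. The reagent volume experiment, which varied the volumes of the amplification reagents, gave 1 of 10 protocol-a, 1 of 11 protocol-b and 2 of 10 protocol-c libraries. The PCR cycles experiment gave 2 of 3 libraries with 25 cycles, 1 of 5 with 23 cycles and 0 of 4 with 20 cycles. The experiment on freezing after incubation gave 2 of 11 unfrozen and 0 of 10 frozen libraries. The proteinase K experiment, with 1 or 2 µl in the titles, gave 0 of 5 and 0 of 6. The comparison set held 29 libraries of the full collection, 19 of reagent volume and 15 of freezing after incubation, 8 of them frozen. It also held 12 of cresyl violet, 11 of eosin, 9 of kit size, 9 of propidium iodide and 8 of proteinase K. Early freezing and SYBR Gold gave it 7 each, and PCR cycles 5. Protocols differed between experiments, so experiment and protocol cannot be told apart across experiments, and the labels name no processing batch. The table holds only libraries that passed the quality control of the authors, and per the study's text the libraries were collected from 1 biological replicate of the cells, so p-values below measure only the spread between libraries of that replicate, which may be technical.

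Coverage of the high-coverage libraries was 30.1 ± 4.66% (mean ± SD, n = 47), with a lowest value of 25.1%, a median of 28.2% and a highest value of 45.2%. In the comparison set it was 15.2 ± 2.81% (n = 131), from 10.5 to 19.8%. The average high-coverage library thus held 20522 positive windows, 1.98-fold the 10339 of an average library of the comparison set. These values chose the groups and are given as a description with no test, as is every difference between the 2 sets below, since it comes from the same table. The threshold cut a continuous range. The libraries just inside had coverages of 25.13%, 25.48% and 25.50%, and those just outside 24.98%, 24.95% and 24.89%. To see how far a grouping by coverage extended to chromosomes it had not used, libraries were also grouped on part of the genome. When libraries were grouped by the odd-numbered autosomes alone, the 58 libraries with 25 percent or more of these positive had 29.7 ± 6.37% of the even-numbered autosomes positive (13.7 to 46.6%), and the 114 libraries with 10 to 20 percent had 15.9 ± 5.28% (7.80 to 32.7%). The ranges of the groups overlapped on the even-numbered autosomes.

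Windows at the extremes of detection are shown by a short stretch of sequence each, which does not stand for the composition of the whole window. Each line gives 100 bases from the middle of the window, read from assembly NCBIM37 on the + strand in lower case with CG dinucleotides, the sites of DNA methylation in mammals, in capitals. NCBIM37 chromosomes equalled the table's chromosomes in length in 22 of 22 cases, and the authors aligned to mm9, another name of this assembly. Among autosomal windows positive in at least 25 of all libraries, those on chromosome 2 at 98 Mb and chromosome 6 at 103 Mb are 2 of the 7 positive in the most high-coverage libraries, and those on chromosome 2 at 141 Mb and chromosome 6 at 16 Mb are 2 of the 4 positive in the fewest. The window on chromosome 13 had the largest difference between the sets among these. The GC content of the printed bases was 43%, 23%, 49%, 37% and 37% in the order below. That of the whole windows was 36.9%, 35.95%, 37.9%, 39.2% and 38.1%.
chr2:98499951-98500050: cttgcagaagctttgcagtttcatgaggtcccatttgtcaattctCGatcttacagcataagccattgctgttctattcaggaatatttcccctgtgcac
chr6:103579951-103580050: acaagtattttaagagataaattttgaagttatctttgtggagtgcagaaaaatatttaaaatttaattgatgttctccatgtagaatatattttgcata
chr2:141459951-141460050: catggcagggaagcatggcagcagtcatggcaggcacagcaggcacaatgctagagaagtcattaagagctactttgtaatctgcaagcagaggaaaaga
chr6:16539951-16540050: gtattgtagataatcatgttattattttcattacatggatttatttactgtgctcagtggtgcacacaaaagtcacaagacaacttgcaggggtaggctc
chr13:75419951-75420050: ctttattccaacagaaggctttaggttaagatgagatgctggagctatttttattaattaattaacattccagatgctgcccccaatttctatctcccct

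High-coverage libraries sampled more of the 20 chromosomes than the comparison set, by a number that depended on the limit for a sampled chromosome. A chromosome was counted as sampled where 10 percent or more of its windows were positive, over 19 autosomes and X. High-coverage libraries sampled 19.02 ± 1.31 of 20 chromosomes (n = 47, 15 to 20), and the comparison set 13.8 ± 2.43 (n = 131, 7 to 19). All 20 chromosomes were sampled in 23 of 47 high-coverage libraries and in 0 of 131 libraries of the comparison set, while 19 chromosomes were reached in 13 and 2 libraries, respectively. A further 5 high-coverage libraries sampled 18 chromosomes, 2 sampled 17, 3 sampled 16 and 1 sampled 15. The ranges overlapped between 15 and 19 chromosomes. Counted from 20 percent of windows, the means were 16.2 chromosomes in high-coverage libraries and 6.30 in the comparison set, and counted from 5 percent they were 19.6 and 16.9.

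The sampled chromosomes were also more densely filled. The median percent of windows positive over the sampled chromosomes of a library, its fill, was 31.9 ± 5.05% in high-coverage libraries (24.3 to 46.9%) against 19.4 ± 3.15% in the comparison set (13.0 to 27.9%). The fill of 37 of 47 high-coverage libraries was above that of every library of the comparison set. For coverage, which comes from the same calls, this held in 47 of 47 by the rule that chose the groups. With chromosomes counted from 20 percent the mean fill was 34.4% against 26.3%, and from 5 percent 31.5% against 17.4%. The number of chromosomes and the fill were both higher on average at each of the 3 limits, and which of them differed by the larger factor turned with the limit: the fill at 5 and 10 percent, the number at 20 percent.

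**Figure D1:**
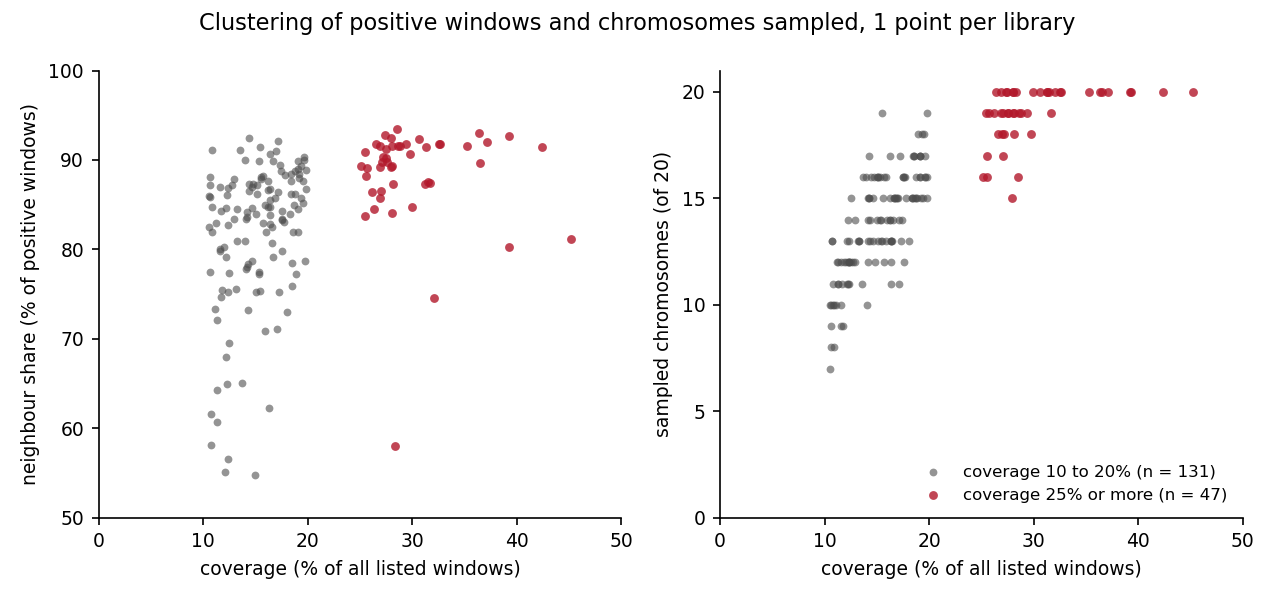
Each point is a library, with its coverage in percent of all listed windows on the horizontal axis and, on the vertical axes, the percent of positive windows with a positive neighbour (left) or the number of the 20 chromosomes with 10 percent or more of windows positive (right). High-coverage libraries (red) reached 15 to 20 chromosomes, and 4 of them lay below 82 percent in the left panel, down to 58.0 percent.

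Within a library, chromosomes were sampled unequally. The most covered autosome of a high-coverage library had 55.8 ± 9.08% of its windows positive (42.2 to 81.9%) and the least covered 11.2 ± 7.10% (0.43 to 30.7%). In the comparison set the most covered autosome had 36.2 ± 7.86% (20.1 to 59.7%) and the least covered 1.75 ± 2.14% (0.081 to 10.5%). At least 1 autosome was 50 percent or more positive in 35 of 47 high-coverage libraries and in 6 of 131 of the comparison set. The coefficient of variation between the 19 autosomes of a library was 0.389 ± 0.114 in high-coverage libraries and 0.603 ± 0.141 in the comparison set, so the autosomes of a high-coverage library were more alike relative to their mean. In percentage points, the SD between autosomes was 12.2 ± 2.90 against 9.64 ± 2.33, the opposite order.

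The libraries at the extremes differed in which chromosomes they filled. The library with the highest coverage, cresyl-violet library 4 (45.2%), sampled all 20 chromosomes, had 8 autosomes at 50 percent or more, and ranged from 30.7% on chromosome 14 to 64.3% on chromosome 13. Propidium iodide library 4 (42.4%) also had 8 such autosomes, with chromosome 1 highest at 69.1% and chromosome 6 lowest at 28.7%. The library with the fewest sampled chromosomes, library 2 of the 25-cycle arm, had a coverage of 27.9% on 15 chromosomes. In it chromosome 14 reached 81.9%, the highest share of any autosome in a high-coverage library, while chromosome 8 had 0.43%, and its coefficient of variation of 0.781 was the highest of the 47. The library with the lowest coverage, full collection library 37 (25.1%), sampled 16 chromosomes and reached 48.01% on its most covered autosome, chromosome 13. An autosome under 1 percent positive occurred in 3 high-coverage libraries, on chromosome 8 in the 25-cycle library, on chromosome 16 in propidium iodide library 8 (0.61%) and on chromosome 5 in large-kit library 8 (0.92%). In the comparison set 74 of 131 libraries had such an autosome.

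**Figure D2:**
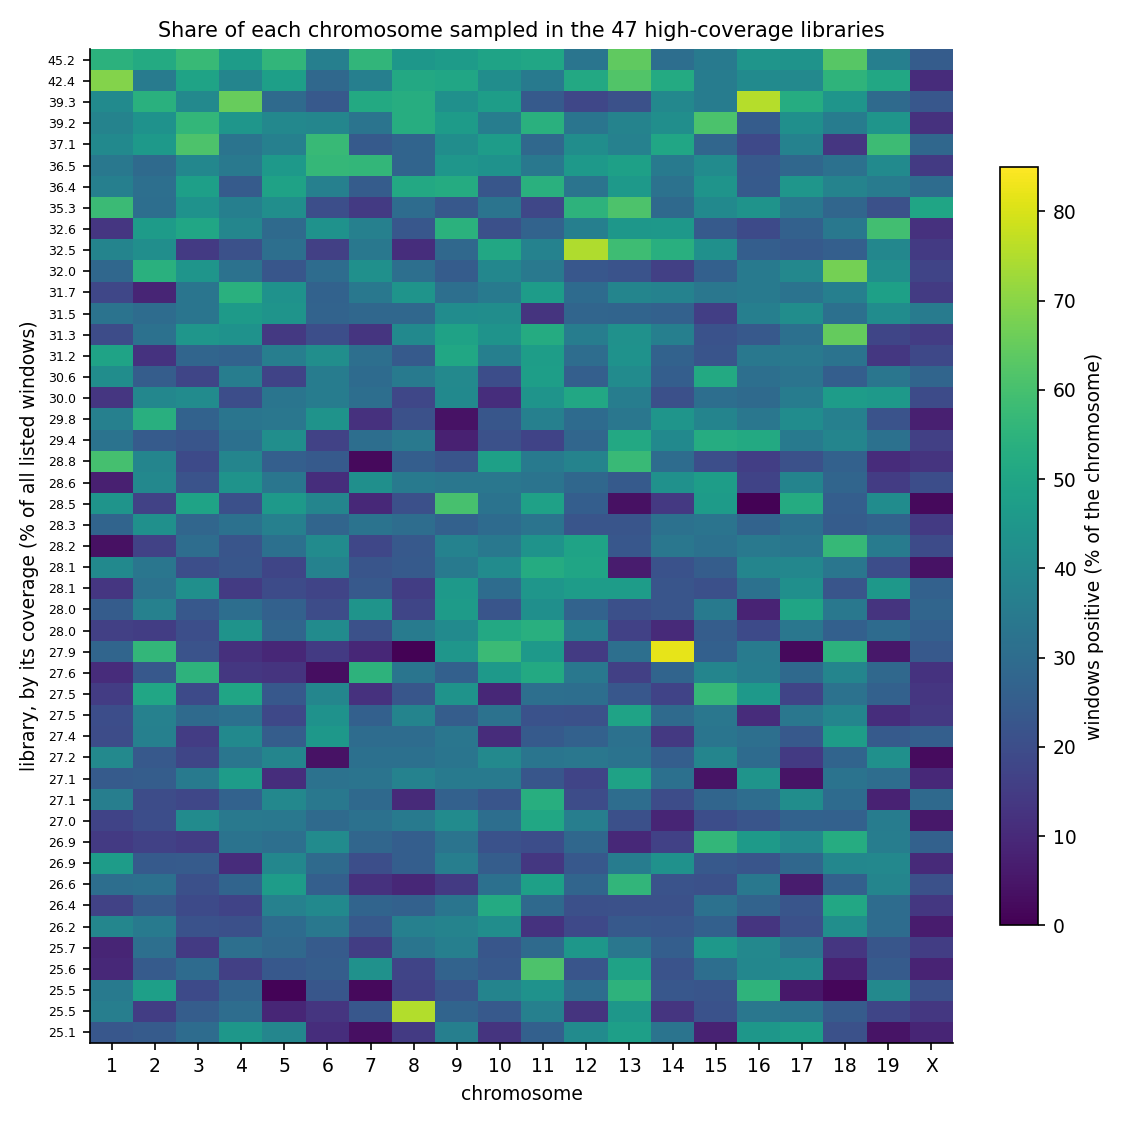
Each row is a high-coverage library, ordered and labelled by its coverage in percent of all listed windows, each column a chromosome, and the colour the percent of that chromosome's windows that were positive. The highest cell is chromosome 14 at 81.9 percent in a library of 27.9 percent coverage, and chromosome X is low in most rows, under 10 percent in 9 of 47.

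Averaged over the 47 libraries, the 19 autosomes had between 27.5% and 37.1% of their windows positive, against 12.8% to 18.3% in the comparison set. Chromosome 11 was highest at 37.1 ± 12.9% and lay above the autosomal coverage of the same library in 32 of 47 libraries. Chromosome 13 followed with 36.2 ± 15.4% and chromosome 9 with 35.8 ± 11.6%. Chromosome 7 was lowest at 27.5 ± 13.5% and lay above the autosomal coverage in 17 of 47. Within libraries, chromosome 11 lay 5.08 ± 1.97 percentage points (SE over 47 libraries) above the autosomal coverage, chromosome 13 4.17 ± 2.11 and chromosome 9 3.82 ± 1.57 above it, and chromosome 7 at -4.49 ± 1.76 points. The same differences in the comparison set were 2.08 ± 0.859, 1.02 ± 0.847, 1.71 ± 0.856 and -0.42 ± 0.795 points. These chromosomes were picked from the ends of the 19 autosomes and carry no test. The ratio of the means of both sets ranged from 1.74 on chromosomes 6, 7 and 19 to 2.34 on chromosome 14 and 2.35 on chromosome 10, with a median of 2.00. Chromosomes 3, 4, 11 and 12 were sampled in all 47 high-coverage libraries, whereas chromosome 7 fell under 10 percent in 5 of them, the most of any autosome. No autosome was sampled in every library of the comparison set, where chromosome 14 fell under 10 percent in 58 of 131.

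Chromosome X had 17.6 ± 9.28% of its windows positive in high-coverage libraries (2.26 to 50.0%) and 7.83 ± 7.17% in the comparison set (0.024 to 33.5%). As a ratio to the autosomal coverage of the same library, X stood at 0.555 ± 0.289 in high-coverage libraries and at 0.494 ± 0.465 in the comparison set, with medians of 0.506 and 0.412. It lay below the autosomal coverage in all but 3 of 47 high-coverage libraries. These were large-kit library 11, with X at 50.0% and the autosomes at 35.5%, full collection library 48, with 35.4% and 32.3%, and full collection library 42, with 29.1% and 27.9%. X was the least covered of all 20 chromosomes in 12 of 47 high-coverage libraries and in 23 of 131 of the comparison set.

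Positive windows of high-coverage libraries lay in longer runs. A run is an unbroken series of adjacent positive windows. Its mean length was 150 ± 29.1 kb in high-coverage libraries (64.7 to 206 kb) and 113 ± 26.99 kb in the comparison set (61.5 to 193 kb). Independent windows at the same coverage would give mean runs of 57.5 ± 4.30 kb and 47.2 ± 1.56 kb, and the mean run was longer than the length given by the library's own coverage in 47 of 47 high-coverage libraries and in 131 of 131 of the comparison set. Runs numbered 5714 ± 1678 per library against 3816 ± 971. The neighbour share, the percent of positive windows with a positive window beside them, was 88.4 ± 5.90% (58.0 to 93.5%) against 81.7 ± 8.15% (54.7 to 92.5%), and 4 high-coverage libraries lay above the whole comparison set. Within the 9 experiments with at least 2 libraries of each set, the difference in mean run ran from 9.89 kb in cresyl violet to 56.7 kb in kit size, and that in neighbour share from 0.691 to 14.1 points in the same experiments. Gaps of a single negative window between runs numbered 40.9 ± 3.25 per 100 runs in high-coverage libraries and 36.2 ± 3.83 in the comparison set.

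The shift was towards the long classes. Runs of 1 Mb or more held 10.5 ± 5.47% of the positive windows of a high-coverage library (1.79 to 28.004%) and 3.15 ± 3.32% in the comparison set (0 to 16.4%). Runs of 520 to 960 kb held 16.6 ± 4.13% against 9.94 ± 6.11%, and runs of 200 to 480 kb held 33.9 ± 4.55% against 32.2 ± 7.52%. Windows without a positive neighbour made up 11.6 ± 5.90% (6.53 to 41.97%) against 18.3 ± 8.15% (7.50 to 45.3%), and runs of 80 to 160 kb 27.4 ± 5.36% against 36.4 ± 7.70%. The ranges of the sets overlapped in every class.

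**Figure D3:**
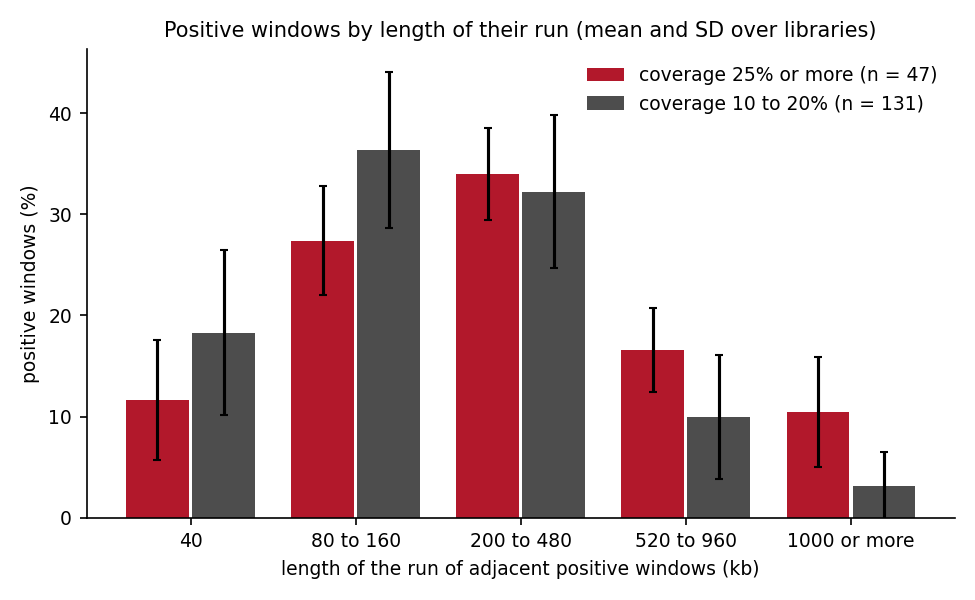
Bars give, for runs of each length in kb, the share of positive windows in percent that such runs hold, as the mean over libraries, and error bars show the SD, for high-coverage libraries (red) and the comparison set (grey). Runs of 1000 kb or more held 10.5 percent of positive windows in high-coverage libraries and 3.15 percent in the comparison set.

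The longest run of a library was 3507 ± 1840 kb in high-coverage libraries (1680 to 12640 kb, median 3080 kb) and 1731 ± 884 kb in the comparison set (520 to 8640 kb, median 1600 kb). It passed 5 Mb in 5 of 47 high-coverage libraries and in 1 of 131 of the comparison set. The longest run in either set covered 12.64 Mb, at chr16:36880001-49520000 in frozen-early library 4. It held 82 protein-coding genes, among them Golgb1, which encodes a Golgi membrane protein, and Hcls1, and the starts of Lsamp, a neuronal cell adhesion gene, and Dppa4, a gene expressed in pluripotent cells. In the other 46 high-coverage libraries a median of 32.9% of this stretch was positive (0 to 69.9%). The same library had runs of 9.16 Mb at chr16:53120001-62280000, with 59 protein-coding genes, and of 9.08 Mb at chr16:75320001-84400000, which held 18 protein-coding genes, among them Ncam2, a neural adhesion gene. Chromosome 16 was 75.4% positive in this library. The fourth in length among high-coverage libraries, 7.68 Mb at chr2:18320001-26000000 with 104 protein-coding genes, among them Bmi1, which encodes a Polycomb protein, came from 25-cycle library 2, where chromosome 2 was 56.1% positive. Gene density was 6.49, 6.44 and 1.98 protein-coding genes per Mb in the runs on chromosome 16 and 13.5 in that on chromosome 2, beside 8.66 over the genome.

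In 4 high-coverage libraries the neighbour share lay under 82 percent, a limit set after the values were seen and near the comparison set's mean of 81.7%. Of the comparison set, 50 of 131 libraries lay under it. Full collection library 34 had a neighbour share of 58.0% at a coverage of 28.3%, with 41.97% of its positive windows single, a mean run of 64.7 kb and 11938 runs, the most of any high-coverage library. Its autosomes were the most even of the 47, from 22.6% to 42.7%, with a coefficient of variation of 0.163. Protocol-b library 8 had a neighbour share of 74.5% at a coverage of 32.04%, frozen-early library 10 of 80.2% at 39.2%, and cresyl-violet library 4 of 81.2% at 45.2%. Runs of 1 Mb or more held 1.79% of positive windows in full collection library 34 and 4.94% in protocol-b library 8. They held 9.19% in frozen-early library 10 and 11.9% in cresyl-violet library 4, beside a mean of 10.5% in high-coverage libraries. The mean neighbour share of high-coverage libraries exceeded that of the comparison set by 6.63 percentage points with all libraries, by 8.01 without these 4, and by 3.04 with the limit applied to both sets (43 and 81 libraries). Highest in neighbour share was propidium iodide library 8 with 93.5%, which also had the longest mean run, 206 kb, and sampled 16 chromosomes at a coverage of 28.5%.

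Linkage was measured within each library as the percent of autosomal windows at a given distance from a positive window that were positive. It fell with distance in both sets. In high-coverage libraries it was 72.4 ± 7.04% at 40 kb, 62.0 ± 5.67% at 200 kb, 57.5 ± 5.22% at 400 kb and 50.4 ± 4.76% at 1 Mb. At longer range it was 45.1 ± 4.66% at 2 Mb, 41.1 ± 4.83% at 4 Mb, 38.6 ± 4.90% at 10 Mb and 36.5 ± 5.09% at 40 Mb, where it still lay above the mean autosomal coverage of 31.99%. The comparison set had 62.7 ± 9.79% at 40 kb, 37.1 ± 6.44% at 1 Mb, 26.4 ± 4.78% at 4 Mb and 21.1 ± 4.11% at 40 Mb, beside an autosomal coverage of 16.2%.

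In percentage points above the autosomal coverage of the same library, high-coverage libraries were lower. The excess at 1 Mb was 18.4 ± 4.76 points (4.25 to 34.8) against 20.9 ± 5.63 (7.60 to 36.2), and at 40 kb 40.4 ± 8.43 against 46.5 ± 9.21. Of the 47 high-coverage libraries, 12 lay above the mean of the comparison set at 1 Mb. This order turned in 2 of the 9 experiments with at least 2 libraries of each set, the PCR cycles experiment, where high-coverage libraries were 2.45 points higher, and the kit size experiment, where they were 3.92 points higher. It also turned with the scale. A library of high coverage has less room above its coverage, and as a percent of that room the excess at 1 Mb was 26.9 ± 6.19% in high-coverage libraries and 25.0 ± 6.75% in the comparison set.

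The excess was also taken against each chromosome, which leaves out differences in coverage between the chromosomes of a library. Above the coverage of the same chromosome in the same library, the excess of high-coverage libraries was 35.7 ± 7.34 points at 40 kb, 13.6 ± 3.00 at 1 Mb, 4.36 ± 1.54 at 4 Mb and 1.76 ± 1.05 at 10 Mb, and it was -0.22 ± 1.00 at 40 Mb. The comparison set had 40.9 ± 8.02, 15.4 ± 4.05, 4.68 ± 2.08 and 1.77 ± 1.63 points, and -0.64 ± 1.34 at 40 Mb.

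Across libraries of a set, the normalized linkage D′ compares how often both windows of a pair were positive together with the product of their detection frequencies, scaled by the largest size this difference can take. The mean D′ over autosomal pairs was 0.664 ± 0.0165 (jackknife SE over libraries) at 40 kb, 0.323 ± 0.010 at 1 Mb, 0.162 ± 0.0093 at 4 Mb and 0.072 ± 0.010 at 40 Mb in high-coverage libraries. In the comparison set it was 0.615 ± 0.0096, 0.294 ± 0.0069, 0.134 ± 0.0063 and 0.022 ± 0.0067. The sets hold different numbers of libraries, and the rule that formed them makes windows positive more often in high-coverage libraries. D′ depends on both, since its scale is set by the detection frequencies, so a gap in D′ cannot be read as a gap in linkage alone. The plain correlation coefficient of the same pairs was taken too. It was 0.272 against 0.257 at 1 Mb and 0.079 against 0.067 at 40 Mb.

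**Figure D4:**
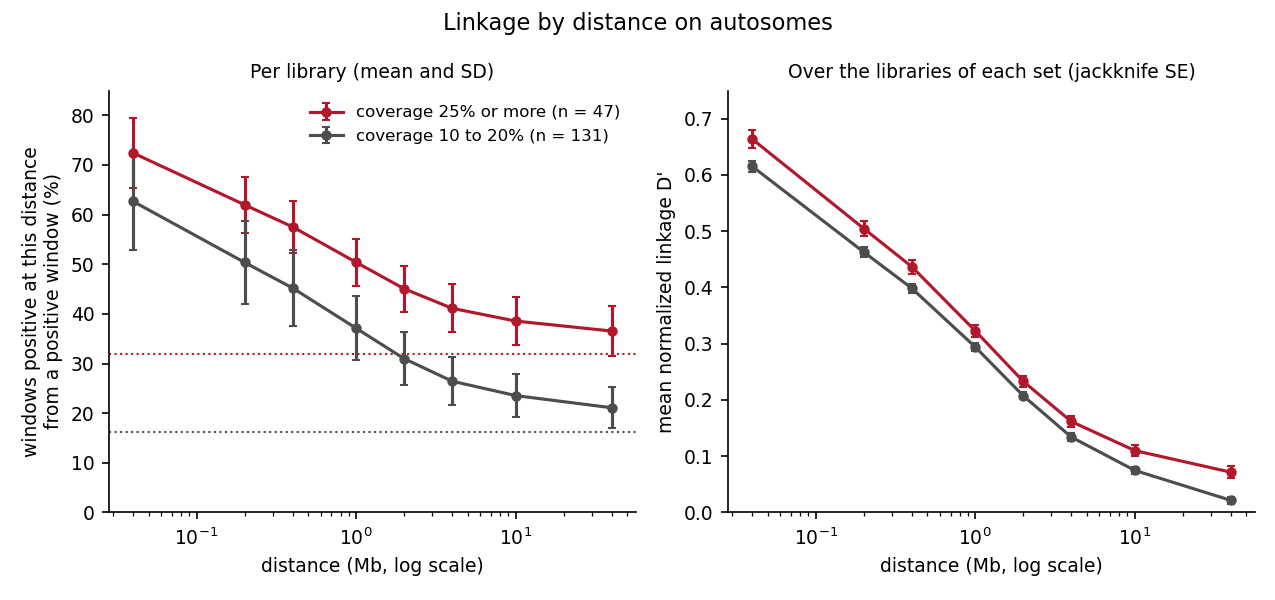
The left panel plots the percent of windows positive at each distance (Mb, log scale) from a positive window, as mean and SD over libraries, with the mean autosomal coverage of each set dotted. The right panel plots the mean normalized linkage D′ over autosomal window pairs with its jackknife SE. High-coverage libraries (red) fell from 72.4 percent at 0.04 Mb to 36.5 percent at 40 Mb, and the comparison set (grey) from 62.7 to 21.1 percent.

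The 47 high-coverage libraries together reached about as much of the genome as the 131 libraries of the comparison set. Of 61816 autosomal windows, 96.3% were positive in at least 1 high-coverage library and 96.4% in at least 1 of the comparison set. No high-coverage library was positive in 2260 autosomal windows, of which 2177 were positive in none of the 249 libraries. Over the 59030 autosomal windows positive in at least 25 libraries, a window was positive in a median of 16 of 47 high-coverage libraries (3 to 47) and in a median of 22 of 131 of the comparison set. On X, 94.5% and 94.9% of 4167 windows were reached.

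Base composition and genes in the sampled DNA differed little between the sets. Positive autosomal windows of high-coverage libraries had a GC content of 42.2 ± 0.198% and those of the comparison set 42.3 ± 0.346%, beside 41.9% over all autosomal windows. A protein-coding gene lay in 58.0 ± 1.37% and 58.2 ± 2.34% of positive windows, beside 53.9% of all. In both sets windows richer in GC were positive more often. In the quintile of windows with the lowest GC, 29.8 ± 5.90% were positive in high-coverage libraries, and in the quintile with the highest 36.5 ± 5.33%, while the comparison set rose from 14.9 ± 3.46% to 18.5 ± 3.69%. The ratio between the sets stayed between 1.97 and 2.00 over the quintiles. Windows without a protein-coding gene were positive in 31.7 ± 5.59% and those with 4 or more in 37.7 ± 5.79%, with ratios to the comparison set of 1.99 and 1.94. Windows in the first 5 Mb of the usable part of a chromosome were positive in 34.6 ± 8.08%, those in the last 5 Mb in 33.5 ± 8.03% and those between in 33.4 ± 5.28%.

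Over 1081 pairs of high-coverage libraries, the correlation of positive calls across autosomal windows had a median of 0.0082 and a highest value of 0.091, between cresyl-violet library 2 and large-kit library 8. Over 8515 pairs of the comparison set the median was 0.0055 and the highest value 0.107. No high-coverage library was identical with another library. These correlations are across windows, which are not independent, and are given as a description.

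The window chr2:98480001-98520000, which overlaps the predicted genes Gm10800 and Gm10801, was positive in all 249 libraries, the 47 high-coverage libraries among them. The printed bases of it lie in no annotated gene and hold 1 CG dinucleotide. The window chr6:103560001-103600000 in Chl1, a neural cell adhesion gene, was positive in 47 of 47 high-coverage libraries and in 129 of 131 of the comparison set, and its printed bases are intronic. At the other end, chr2:141440001-141480000 in Macrod2, a long gene expressed in brain, and chr6:16520001-16560000, with no protein-coding gene, were each positive in 3 of 47 high-coverage libraries, and the printed bases of the former are intronic. In the comparison set these windows were positive in 20 and 19 of 131, that is in 15.3% and 14.5% against 6.38% of high-coverage libraries. The largest difference was found at chr13:75400001-75440000, with no protein-coding gene, which was positive in 31 of 47 high-coverage libraries and in 20 of 131 of the comparison set. It was followed by chr4:55360001-55400000 at Rad23b, which encodes a DNA repair protein, with 28 of 47 and 15 of 131. Differences of opposite sign were largest at chr7:122360001-122400000 (4 of 47 and 28 of 131) and at chr9:91160001-91200000 (3 of 47 and 23 of 131). These windows were picked from the ends of 59030 windows and carry no test.

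Gene loci were followed through the window that holds the start of the gene, for 51 of 53 listed genes found by name in GENCODE vM1. Where several annotated genes shared a name, the longest was taken. Over all autosomal windows positive in at least 25 libraries, the median detection was 34.04% of high-coverage libraries and 16.8% of the comparison set, and 98.6% of windows were positive in a larger share of the high-coverage libraries.

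Among 15 loci of pluripotency genes, the median locus was positive in 36.2% of high-coverage libraries (23.4 to 51.1%) and in 20.6% of the comparison set, and all 15 were positive in a larger share of high-coverage libraries. A high-coverage library captured a median of 6 of these loci (2 to 10), and a library of the comparison set a median of 3 (0 to 7). Tdgf1, which encodes a co-receptor of the Nodal signal, was positive most often in high-coverage libraries, in 24 of 47, and in 27 of 131 of the comparison set, where Nanog and Fgf4 stood highest with 35 each. The transcription factor genes at the core of the pluripotency network differed in detection. Nanog was positive in 22 of 47 and 35 of 131 libraries, Esrrb, which encodes an orphan nuclear receptor, in 21 and 24, and Klf4, which encodes a Krüppel-like factor, in 19 and 20. Sox2 was positive in 13 of 47 and 24 of 131, as was Zfp42, a marker gene of undifferentiated cells, on another chromosome. Pou5f1, which encodes Oct4, was positive least often in high-coverage libraries, in 11 of 47 or 23.4%, but in the comparison set its 28 of 131, 21.4%, lay above the median of the list. The run around a positive locus had a median length of 280 kb in high-coverage libraries and of 160 kb in the comparison set, taken over the loci of the list. At Sox2 it was 280 kb in both sets, and at Klf4 it was 360 kb against 160 kb, with a longest run of 2520 kb in a high-coverage library.

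Among 14 loci of lineage regulators, developmental transcription factor and signalling genes that are largely silent in stem cells, the median locus was positive in 32.98% of high-coverage libraries and in 16.8% of the comparison set. Hoxd11, a homeobox gene of the HoxD cluster, stood highest in high-coverage libraries with 25 of 47, 53.2%, and lowest in the comparison set with 12 of 131, 9.16%. Hoxa9 of the HoxA cluster stood lowest in high-coverage libraries with 8 of 47, 17.02%, and highest in the comparison set with 29 of 131, 22.1%, and was the only locus of this list with the smaller share in high-coverage libraries. The medians for the 12 long neuronal genes were 27.7% and 15.3%. In this list Dscam, a cell adhesion gene, was positive in 19 of 47 and 17 of 131 libraries, and Macrod2 in 7 of 47 and 25 of 131, 14.9% and 19.1%. For the 10 housekeeping genes the medians were 41.5% and 21.8%, and in high-coverage libraries Ppia, which encodes cyclophilin A, was highest at 25 of 47 and Eef2, which encodes a translation elongation factor, lowest at 15 of 47. In the comparison set these were positive in 29 and 23 of 131, and Tubb5 was highest with 32 and Hsp90ab1 lowest with 21. The mean GC content of the windows was 47.3% for pluripotency genes, 47.6% for lineage regulators, 39.6% for long neuronal genes and 49.3% for housekeeping genes, and its part in the order of the lists was not tested.

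**Figure D5:**
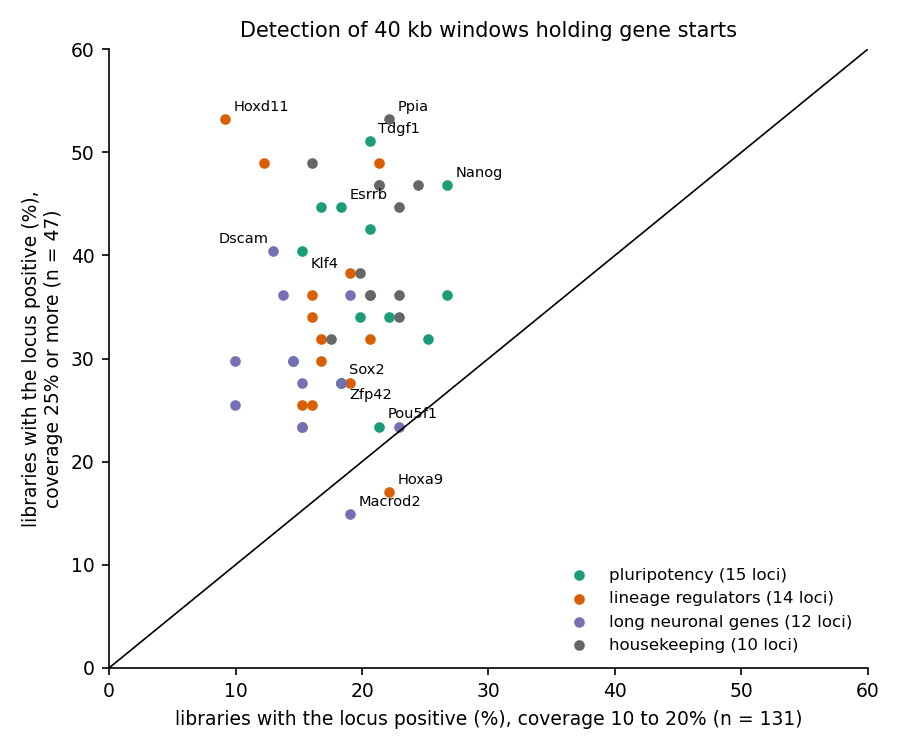
Each point is the 40 kb window holding the start of a listed gene, placed by the percent of libraries of the comparison set (horizontal) and of high-coverage libraries (vertical) in which it was positive, with equal shares on the line. Nearly all points lie above the line, as did 98.6 percent of all autosomal windows, and Hoxa9 and Macrod2 lie below it.

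The high-coverage libraries of different experiments were compared with a test, since the experiment is a label that the coverage rule did not use. The measures still come from the same calls as coverage, and the rule chose which libraries of each experiment entered. The test therefore covers only libraries chosen in this way, and its result does not extend to the experiments as a whole. In the 8 experiments with at least 3 high-coverage libraries (44 libraries), mean run length differed between experiments (F = 4.24, adjusted p = 0.00489, permutation test of the F statistic over experiment labels, Benjamini-Hochberg over 3 measures). It passed the threshold of 0.05 with each of the 44 libraries left out in turn (adjusted p from 0.00084 to 0.0161). It was 172 ± 25.4 kb in the propidium iodide experiment (n = 6), 167 ± 24.3 kb in early freezing (n = 8) and 164 ± 32.8 kb in the PCR cycles experiment (n = 3). In the kit size experiment it was 156 ± 18.6 kb (n = 7), in the cresyl violet experiment 156 ± 20.5 kb (n = 7) and in the full collection 131 ± 36.1 kb (n = 6). It was lowest in the eosin experiment with 116 ± 2.23 kb (n = 3) and the reagent volume experiment with 113 ± 13.4 kb (n = 4), whose highest value, 128 kb, lay below all 6 propidium iodide libraries and all but 1 of the 8 early freezing libraries. Mean coverage of the same libraries was 32.5% in propidium iodide, 33.2% in early freezing, 27.2% in PCR cycles, 28.4% in kit size, 30.5% in cresyl violet, 28.1% in the full collection, 27.1% in eosin and 28.9% in reagent volume. The part of coverage in the difference was not tested. Mean runs also varied between these experiments in the comparison set, which was not tested. There they were 146 kb in cresyl violet, 141 kb in propidium iodide, 121 kb in PCR cycles and 119 kb in the full collection. Early freezing had 118 kb, kit size 99.0 kb, reagent volume 95.2 kb and eosin 94.4 kb.

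Neighbour share did not pass the threshold on its means (F = 1.87, adjusted p = 0.137, same permutation test), but passed on ranks (adjusted p = 0.00691). With each of 44 libraries left out in turn, an alternative chosen after the values were seen, it passed in only 1 case (adjusted p = 0.00874). That case left out full collection library 34, the library of lowest neighbour share, so the tested measure itself marks the library left out. It is not read as a passed test. It was 91.4 ± 2.16% in the propidium iodide experiment, 84.8 ± 0.866% in eosin, 82.6 ± 5.55% in reagent volume and 83.8 ± 12.8% in the full collection, where library 34 alone set the spread. The number of sampled chromosomes did not pass (F = 0.701, adjusted p = 0.677), with means between 18 in the PCR cycles experiment and 19.5 in early freezing and in reagent volume.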

How the data were processed

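The deposited table holds 1 column for each of 249 libraries and 1 row for each of 68162 windows of 40 kb, coded 1 where the window was positive and 0 otherwise. For this table the authors aligned reads to mm9 with Bowtie2 (version 2.1 in the submitters' processing notes), removed duplicate reads and called a window positive from 4 reads with GAMtools. Read counts are not part of the table, so sequencing depth is unknown for every window, and a 0 can stand for absence or for too few reads. All columns matched sample labels, and 0 were left over.

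From the table, coverage, positive share per chromosome, runs, neighbour share and linkage were computed per library with Python 3.11.15 and numpy 2.4.6, with code tested on simulated data. Windows were used in lists and linkage across libraries where positive in at least 25 libraries or, for D′, in at least 5 of each set. D′ is given with a leave-one-library-out jackknife SE. Differences between experiments were tested by permuting experiment labels among libraries 100000 times and comparing F statistics, with no direction. GENCODE vM1 on NCBIM37 gave genes. Titles gave the groups, also for the SYBR Gold libraries, whose protocol text mentions staining. Replicate numbers only name libraries. The members, gene lists and named windows (in each list the loci positive most and least often, 6 pluripotency genes, windows and libraries at the extremes, and the 4 longest runs) were chosen with earlier results of these data known. Alternatives tried were other thresholds for the sets and for a sampled chromosome, medians, fewer windows, closed gaps, single experiments and libraries left out.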

Additional observations from a re-analysis of the deposited data

Results flagged for a closer look

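Within arms with 4 to 10 high-coverage libraries, 5 measures were checked for a library far from the rest of its arm, 25 checks in all, of which 8 stood out. The limit for the gap to the rest is a 95% critical value, so chance alone marks about 5% of such checks, and the measures of a library are not independent. Neighbour share stood apart in 4 libraries. Full collection library 34 had 58.0% beside 86.5 to 91.7% in the other 5 of its arm, frozen-early library 10 had 80.2% beside 90.6 to 93.1% in the other 6, and cresyl-violet library 4 had 81.2% beside 89.8 to 91.8% in the other 4. Propidium iodide library 18 had 87.3% beside 91.5 to 93.5% in the other 5. The mean run of frozen-early library 10 was 113 kb beside 158 to 190 kb, and the excess linkage at 1 Mb of full collection library 34 was 4.25 points beside 16.3 to 21.02 points. The fill of sampled chromosomes was 46.9% in cresyl-violet library 4 beside 27.6 to 29.3%, and 31.9% in small-kit library 6 beside 25.1 to 27.04%.

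Rows outside the chromosomes compared above also held positive windows. The single window of the mitochondrial genome was positive in 47 of 47 high-coverage libraries and in 130 of 131 of the comparison set. At least 1 window of chromosome Y was positive in 43 of 47 high-coverage libraries, with 3.90 ± 3.14% of its 398 windows positive (0 to 11.1%), and in 98 of 131 of the comparison set, with 2.04 ± 2.39% (0 to 9.80%). Of the 398 windows, 67 were positive in any library, and over these the means were 23.2% and 12.1%. The 1780 windows of unplaced contigs were positive in 0 of the libraries of either set.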

How the results depend on the processing

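High-coverage libraries exceeded the comparison set in sampled chromosomes, fill, mean run length and neighbour share under each alternative tried, and the fill, 12.5 points higher, moved by less than the SD of high-coverage libraries, 5.05 points (8.15 to 17.5). The difference of 5.26 sampled chromosomes became 2.73 with chromosomes counted from 5 percent and 9.87 from 20 percent, 7.64 within early freezing and 3.57 within kit size. Mean runs, 36.9 kb longer, were 80.7 kb longer with gaps of 1 window closed and 9.89 kb longer within cresyl violet, 12.8 within the full collection, 17.9 within reagent volume and 25.2 with neighbour shares under 82 left out of both sets. The difference in neighbour share of 6.63 points was 0.691 within cresyl violet, 1.18 within the full collection, 2.55 within propidium iodide, 14.1 within kit size and 3.04 with that limit in both sets. The excess at 1 Mb, -2.52 points, turned to 2.45 within PCR cycles, 3.92 within kit size and 1.92 as a percent of the room above the coverage, a scale added after the data were seen. It was -5.27 with members from 30 percent and -4.61 with the limit of 82 in both sets. Within cresyl violet it was -6.72, within the full collection -6.07, within early freezing -5.67, within propidium iodide -5.40 and within freezing after incubation -5.35. Without the 4 high-coverage libraries under that limit it was -1.63, within eosin -1.50 and within reagent volume -0.41. The causes were not tested. Leaving out each high-coverage library in turn gave 5.24 to 5.35 chromosomes, 12.2 to 12.7 points of fill, 35.6 to 38.7 kb, 6.52 to 7.29 points of neighbour share and -2.88 to -2.21 points of excess. In the test across experiments, F for neighbour share was 1.87, rose to 3.64 on ranks, and ranged from 1.46 to 3.80 with libraries left out in turn, where only the fit without full collection library 34 passed. Its value of 9.99 without the 4 libraries under 82 percent is no test, since neighbour share itself chose the libraries left out. F for mean run length stayed between 3.55 and 5.42 under the other alternatives, and that for sampled chromosomes between 0.482 and 1.15. Leaving out libraries by neighbour share, and in turn for the tests, was also chosen after seeing the data. No paired analysis was possible because replicate numbers only name libraries and the sets were formed by coverage.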
